A study of Mus musculus with 31 samples.

Results

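Potassium channel genes were taken as every gene whose annotated symbol begins with Kcn among the probes of the submitters' value table, with the probe of the highest mean standing for each gene. This gave 45 genes of the 8972 named genes that were measured. The filter on dim probes asked for detection (p-value under 0.05) in 7 arrays or more. It could remove none of the 45, because every probe of the submitters' table was detected on 21 arrays or more. The tissue was the bed nucleus of the stria terminalis with the preoptic area (BNST/POA) of MF1 mice aged 152 days, from the Sex Chromosome Trisomy model of Klinefelter syndrome. The 4 groups were XX females without Sry (8 arrays), XX males with Sry (7), XXY males with Sry (8) and XY males with Sry (8), all profiled on Illumina bead arrays with 1 colour. As background on the model, Sry is carried there as an autosomal transgene and the Y chromosome lacks its own copy, so that testes do not depend on the sex chromosomes. The design text names the question of whether feminised partner preference had a molecular counterpart in this tissue.

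Potassium channels let potassium leave or enter the cell along its gradient and thereby set the resting potential, the shape of the action potential and the rate of firing. Voltage-gated pores open on depolarisation, inward rectifiers and two-pore-domain channels carry current near rest, and calcium- or sodium-activated pores open when those ions rise in the cell. Auxiliary subunits change how many pores reach the membrane and how fast they open and close. In neurons of the BNST and the preoptic area these channels shape firing as they do elsewhere in the forebrain.

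The 45 genes comprised 12 voltage-gated pore subunits, 4 electrically silent subunits, 4 ion-activated pore subunits, 7 inward rectifiers, 8 two-pore-domain channels, 9 auxiliary subunits and 1 regulator. The voltage-gated pores were the Shaker-type delayed rectifiers and low-threshold channels Kcna1, Kcna2, Kcna3, Kcna5 and Kcna6, the fast-spiking channels Kcnc1 and Kcnc4, the dendritic A-type channel Kcnd2, the ether-a-go-go channels Kcnh1, Kcnh2 and Kcnh5, and the M-current subunit Kcnq3. Kcnf1, Kcng4, Kcns1 and Kcns2 form no channel alone and modify other voltage-gated pores. The ion-activated pores were the large-conductance calcium-activated channel Kcnma1, the small-conductance channel Kcnn1, the sodium-activated channel Kcnt1 and the sperm channel Kcnu1. The inward rectifiers were the strong rectifiers Kcnj2, Kcnj4 and Kcnj12, the G-protein-gated subunits Kcnj3 and Kcnj9, the ATP-sensitive pore Kcnj8 and the glial subunit Kcnj16. The two-pore-domain channels were Kcnk1, the stretch- and lipid-sensitive Kcnk2, Kcnk4 and Kcnk10, the acid-sensitive Kcnk3, and Kcnk6, Kcnk12 and Kcnk13. The auxiliary subunits were the Kcna partners Kcnab1, Kcnab2 and Kcnab3, the calcium-binding Kcnd partners Kcnip1, Kcnip2, Kcnip3 and Kcnip4, the X-linked Kcne1l, and Kcnmb4, the neuronal partner of Kcnma1. The regulator was Kcnrg, known from human cells to hold back voltage-gated channels.

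The arrays detected between 12939 and 14397 of 25697 probes, and 33 of the 45 genes were detected on all 31 arrays. The other 12 were detected on fewer arrays, down to 21 for Kcnh5, which is also the lowest count in the submitters' table. No gene was undetected throughout a group. Xist was detected on all arrays of the groups with XX or XXY chromosomes and on 0 of 8 XY male arrays. Of 14 BNST and preoptic markers listed, 10 were measured and 9 of these were detected on all arrays. The descriptions name 2 batches, with 5 arrays of each group in batch 1 and the rest in batch 2. The array XX male 6 is labelled batch 1, but its position on the first principal component of all features was 27.7, among the batch 2 arrays. Many results are therefore given with and without it. Batch differences of single potassium channel genes count it in batch 1 unless stated otherwise, whereas the signal ranges given for batch 1 leave it out. The labels call the arrays biological replicates without saying that each is a different animal, so that the p-values stand for the spread between samples, part of which may be technical.

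Levels are given as background-corrected, quantile-normalized log2 signals, and since probes bind with different strength they are set against each other only within a gene. Mean signals over all arrays ran from 6.45 (Kcna5) to 9.11 (Kcna2) in the Kcna subfamily, and were 10.37 for Kcnc1 and 12.42 for Kcnc4. They were 10.31 for Kcnd2, from 5.72 (Kcnh5) to 9.63 (Kcnh2) in Kcnh, and 6.02 for Kcnq3. Among the silent subunits the mean was 9.60 for Kcnf1, 6.01 for Kcng4, 5.84 for Kcns1 and 7.97 for Kcns2. The Kcnj subfamily spanned 5.80 (Kcnj2) to 8.60 (Kcnj16), and Kcnk spanned 6.27 (Kcnk10) to 11.19 (Kcnk1). For the ion-activated pores it was 8.72 for Kcnma1, 7.26 for Kcnn1, 6.30 for Kcnt1 and 7.22 for Kcnu1. Kcnab spanned 6.70 (Kcnab3) to 12.22 (Kcnab2), Kcnip spanned 7.48 (Kcnip2) to 9.56 (Kcnip3), and Kcne1l, Kcnmb4 and Kcnrg had means of 9.91, 9.98 and 5.88. Within each gene the 4 group means lay close together: the highest and lowest differed by less than 0.5 in 44 of 45 genes and by less than 0.25 in 33, the exception at 0.5 being Kcnj4 at 0.63.

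No potassium channel gene passed an adjusted p of 0.05 in any of the 6 comparisons between groups, in a limma fit with batch as a term and Benjamini-Hochberg adjustment over 11711 features. The same held for the moderated F test of any difference among the 4 groups, which 0.0854% of all features passed, and 0.102% without XX male 6. At an unadjusted p under 0.05, limma counted 1 gene in XXY against XY males, 1 in XX females against XY males, 6 in XX against XY males, 5 in XXY against XX males, 0 in XX females against XXY males and 4 in XX females against XX males. Without XX male 6 these counts were 1, 1, 2, 2, 0 and 0. Over all features the adjusted threshold was passed by 0.0512%, 0.0683%, 0.0598%, 0.0256%, 0.0512% and 0.0256% in the same order, and without XX male 6 by 0.0512%, 0.0683%, 0.0598%, 0.0256%, 0.0598% and 0.0171%. The unadjusted one was passed by 2.75%, 4.24%, 5.63%, 6.55%, 5.35% and 6.73%, and without XX male 6 by 3.25%, 5.12%, 3.76%, 4.31%, 6.58% and 4.6%. By the F test, 4 of the 45 genes had an unadjusted p under 0.05 against 4.95% of all features, and 1 without XX male 6 against 4.46%. The 95% intervals lay within 0.5 on the log2 scale for 39 of the 45 genes in XXY against XY males, for 38 in XX females against XY males and for 35 in XX females against XXY males. In the comparisons with XX males they did so for fewer genes, 30 against XY males, 31 against XXY males and 31 against XX females, and reached -1.22 for Kcnj4 in XX females against XX males. Median differences of the 45 genes were -0.03 in XXY against XY males and 0.05 in XX females against XY males, beside 0.0029 and -0.00057 over all features.

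**Figure D1:**
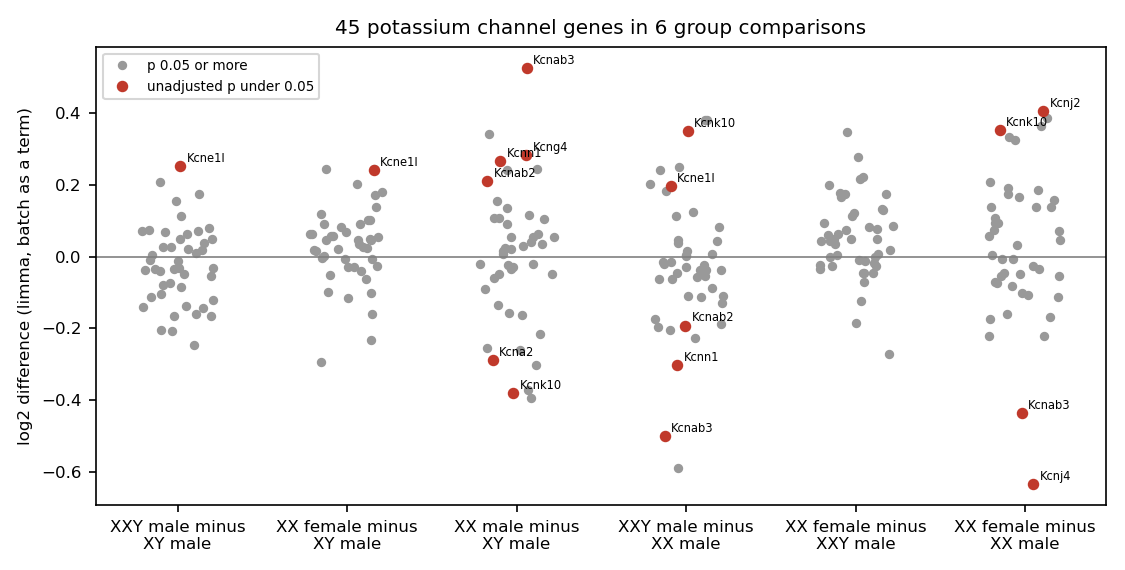
Log2 difference of each of the 45 potassium channel genes (points, spread sideways for legibility) in each of the 6 group comparisons, from the limma fit with batch as a term. Red points are named and have an unadjusted p under 0.05, which was 1 gene in XXY against XY males, and no point passed the adjusted threshold.

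Kcne1l, the X-linked member of a family of small subunits that modify voltage-gated pores, had the smallest p in XXY against XY males. Its lowest, median and highest signals were 9.77, 10.01 and 10.27 in XXY males and 9.51, 9.79 and 10.03 in XY males. They were 9.72, 10.06 and 10.27 in XX females and 9.56, 9.86 and 10.05 in XX males. All 4 groups overlapped. The group means were 10.02 ± 0.14 (SD, n = 8) in XXY males, 10.01 ± 0.20 (SD, n = 8) in XX females, 9.82 ± 0.18 (SD, n = 7) in XX males and 9.77 ± 0.19 (SD, n = 8) in XY males. The XXY minus XY difference was 0.25 with an SE of 0.09 (limma, unadjusted p = 0.00885, adjusted p = 1.00), and it was 0.27 within batch 1 and 0.22 within batch 2. XX females minus XY males gave 0.24 (limma, adjusted p = 1.00), with 0.33 and 0.09 within the batches. The next genes by p in XXY against XY males were Kcnab1 at -0.21, which was -0.13 without XY male 2, and Kcnh2 at -0.16. In XX females against XY males they were Kcnf1 at 0.24 and Kcnj16 at 0.20.

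The comparisons with XX males held most of the small p-values, and XX male 6 moved with them. Kcnab2, a beta subunit of Shaker-type channels, had lowest, median and highest signals of 12.16, 12.35 and 12.52 in XX males, beside a median of 12.14 and a highest signal of 12.24 in XY males. The highest of all, 12.52, was XX male 6, and the groups overlapped. XX minus XY males was 0.21 with an SE of 0.07 (limma, adjusted p = 0.874) and 0.19 without XX male 6. Kcnk10 was at 5.38, 6.18 and 6.46 in XX males against 5.69, 6.46 and 6.88 in XY males, a difference of -0.38 that was -0.27 without XX male 6. Kcnab3 differed by 0.53, and by 0.37 without that array, on which it reached 7.77. Kcnn1, a small-conductance calcium-activated pore, was -0.30 in XXY against XX males (limma, adjusted p = 0.748) and -0.22 without XX male 6, its highest array at 7.91. Kcnj2 differed by 0.41 and Kcnj4 by -0.63 in XX females against XX males, and by 0.29 and -0.49 without XX male 6. In XX females against XXY males the genes of smallest p were Kcnj12 at 0.35, Kcnk4 at 0.28 and Kcns1 at -0.27, and that of Kcnk4 was 0.16 without XXY male 2.

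Batch took a larger share of the variance than group in 31 of the 45 genes, or 68.9%, beside 60.2% of all features, and in 66.7% beside 63.6% without XX male 6. With all arrays, 21 of the 45 genes differed between batches (limma, adjusted p under 0.05), 9 of them higher and 12 lower in batch 2. Of all features 44.7% differed, 23.2% higher and 21.5% lower, so that 46.7% of these genes is near the share of all features. Without XX male 6 the counts were 25 genes, 11 higher and 14 lower, beside 48.3% of all features, 25.4% higher and 22.9% lower. A difference over 2-fold was passed by 4 genes, namely Kcna1, Kcnd2, Kcnh1 and Kcnj12, which is 8.89% of the 45 beside 2.24% of all features (2.6% without XX male 6). The batches did not overlap, XX male 6 aside, in 5 genes: Kcna1, Kcnd2, Kcnh1, Kcnma1 and Kcnmb4. That is 11.1% of the 45 beside 4.25% of all features. Of these only Kcnmb4 was read by more than 1 probe, and Kcnj12 was likewise read by 1 probe.

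**Figure D2:**
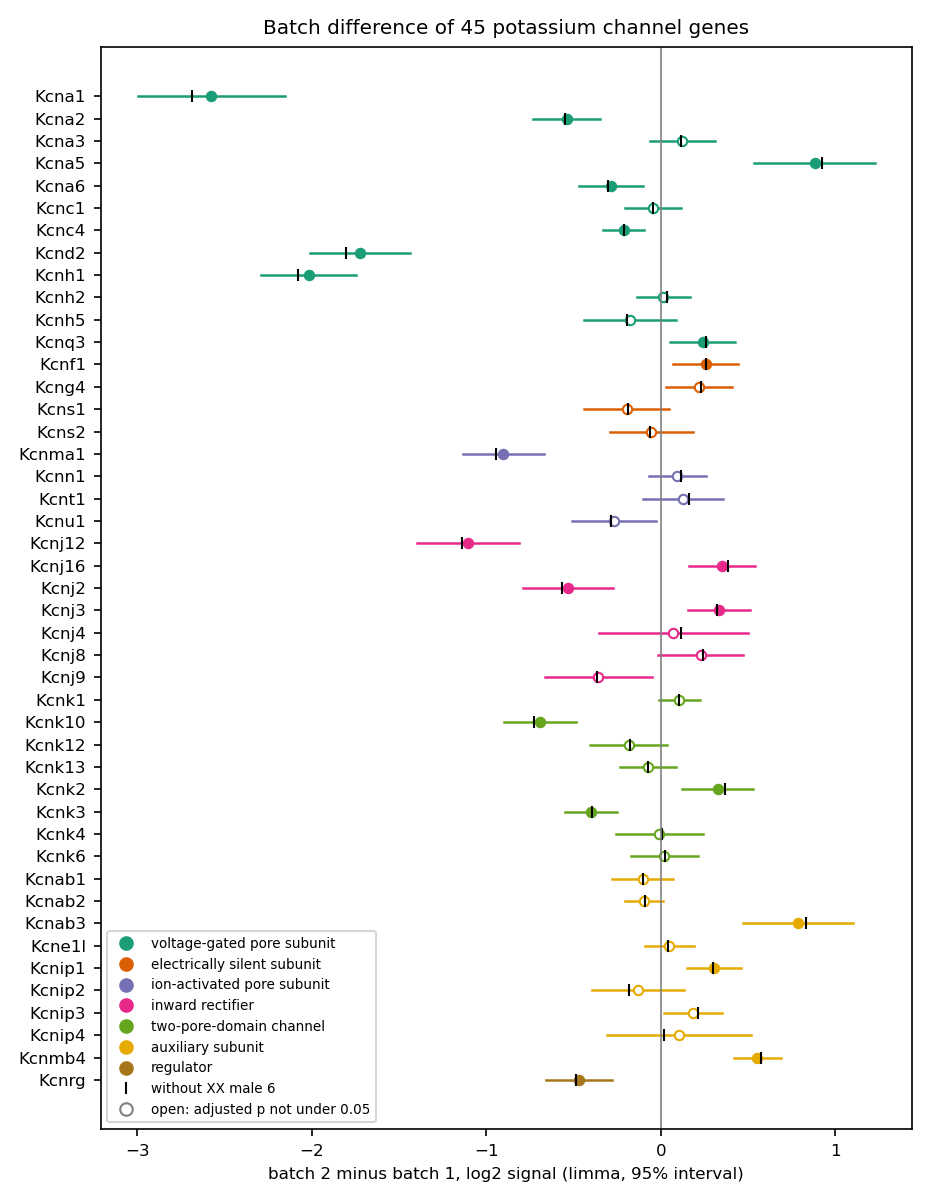
Batch 2 minus batch 1 in log2 signal for the 45 genes, coloured by role, with 95% intervals from limma. Filled points passed an adjusted p of 0.05 and bars mark the value without XX male 6, which lies beyond the all-array value for Kcna1, at -2.69 against -2.58.

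The voltage-gated pores held the largest falls, and 8 of the 12 differed without XX male 6, 2 higher and 6 lower in batch 2. Of all features 48.3% differed without that array, 25.4% higher and 22.9% lower. Kcna1, an axonal low-threshold channel, ran from 8.65 to 9.53 with a median of 9.09 in batch 1 without XX male 6, and from 6.00 to 7.06 with a median of 6.45 in batch 2. XX male 6 stood at 6.44, among the batch 2 arrays. The difference was -2.58 with an SE of 0.21 (limma, adjusted p = 5.58e-11), and without XX male 6 it was -2.69, a 6.44-fold lower signal. It was present in each group, at -2.71 in XX females, -3.04 in XX males, -2.48 in XXY males and -2.62 in XY males. Kcnd2, the A-type pore of dendrites, ran from 10.84 to 11.32 (median 11.02) in batch 1 and from 8.85 to 9.70 (median 9.21) in batch 2, with XX male 6 at 9.01. Its difference was -1.73 with an SE of 0.14 (limma, adjusted p = 7.73e-11). Kcnh1, an ether-a-go-go pore, ran from 8.93 to 9.66 (median 9.23) and from 6.73 to 7.90 (median 7.10), with XX male 6 at 7.77. Its difference was -2.02 with an SE of 0.13 (limma, adjusted p = 1.67e-12). Kcna2 fell by 0.54, Kcna6 fell by 0.29 and Kcnc4 fell by 0.21, whereas Kcna5 was higher in batch 2 by 0.88 with an SE of 0.17 and Kcnq3 by 0.24. Kcna3, Kcnc1, Kcnh2 and Kcnh5 did not pass, with differences between -0.18 and 0.12.

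Kcnma1, the large-conductance calcium-activated pore, and its partner Kcnmb4 differed in opposite directions. Kcnma1 ran from 8.64 to 9.76 (median 9.04) in batch 1 without XX male 6 and from 7.72 to 8.52 (median 8.12) in batch 2, a difference of -0.90 with an SE of 0.11 (limma, adjusted p = 2.57e-07). Kcnmb4 ran from 9.45 to 9.99 (median 9.76) and from 10.14 to 10.64 (median 10.31), a difference of 0.55 with an SE of 0.07 (limma, adjusted p = 1.07e-07). XX male 6 stood at 8.05 and 10.26, within batch 2 for both. The other probes of Kcnmb4 gave smaller differences of the same sign, 0.27 and 0.12. Among the inward rectifiers Kcnj12 fell by 1.11 with an SE of 0.14 (limma, adjusted p = 3.66e-07) and Kcnj2 by 0.53, while Kcnj16, a glial subunit, was higher by 0.35 and Kcnj3, a G-protein-gated subunit, by 0.33. Kcnj9, the other G-protein-gated subunit, passed only without XX male 6, at -0.37, and Kcnj4 at 0.07 and Kcnj8 at 0.23 did not pass. Of the two-pore-domain channels Kcnk10 fell by 0.69 and Kcnk3 by 0.40, and Kcnk2 was higher by 0.32. Probes of 1 gene did not always give the same batch difference: the other probe of Kcnk2 gave -0.000131, and the probes of Kcnc1 gave -0.04 and -0.58. The other probe of Kcnc4 gave -0.08 and did not pass, and that of Kcna6 gave -0.63. Kcnab3 was higher in batch 2 by 0.79 with an SE of 0.15 and Kcnip1 by 0.30. Without XX male 6, 4 of the 9 auxiliary subunits passed, all higher in batch 2. Of all features 48.3% passed, 25.4% higher, so that the share of these subunits that passed is near that of all features. Kcnab1 at -0.10 and Kcnip2 at -0.13 did not pass. Of the remaining genes the silent subunit Kcnf1 was higher by 0.26 and the regulator Kcnrg fell by 0.47. Like Kcnj9, the genes Kcnip3 at 0.21, Kcng4 at 0.23 and Kcnu1 at -0.29 passed only without XX male 6.

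**Figure D3:**
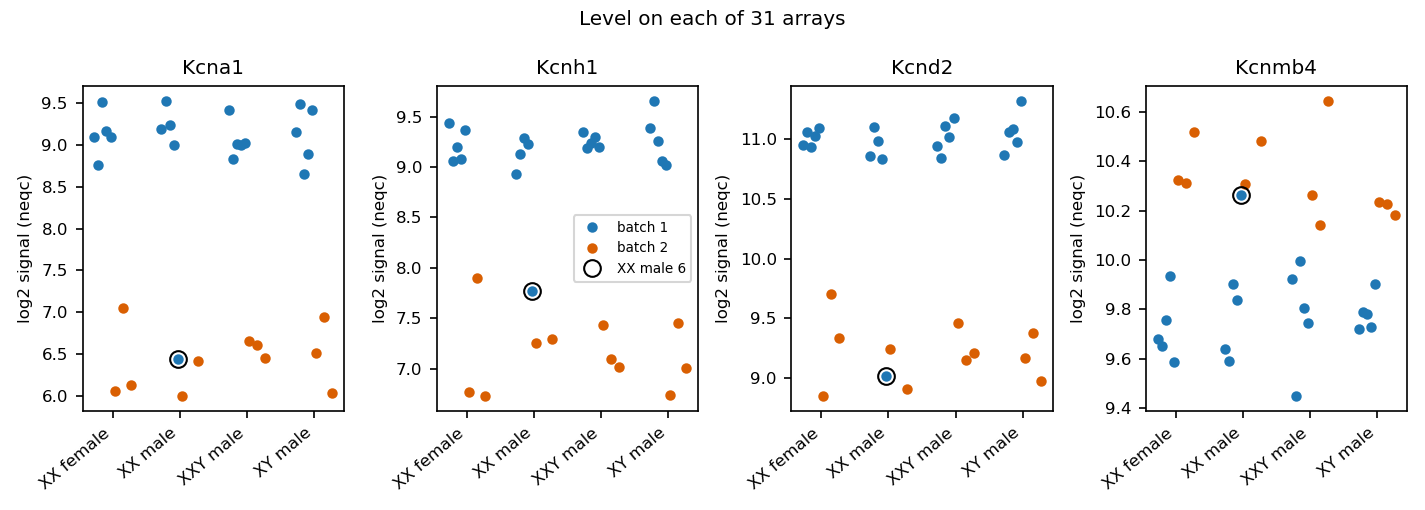
Log2 signal of Kcna1, Kcnh1, Kcnd2 and Kcnmb4 on each of the 31 arrays, by group, with batch 1 in blue, batch 2 in orange and XX male 6 ringed. In every group the batches are apart, and XX male 6, labelled batch 1, lies at 6.44 for Kcna1 with the batch 2 arrays.

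XX male 6 lay nearer the batch 2 mean than the batch 1 mean in 19 of the 25 genes that differed between batches without it. That is 76% of them, beside 68.1% of all features that differed. In the submitters' processed values the batches had been brought together, and XX male 6 had been moved as the batch 2 arrays were. For Kcna1 the shift from the values used here was 1.56 on XX male 6, between 1.45 and 2.37 on batch 2 arrays, and between -0.54 and -0.41 on the other batch 1 arrays. After it, 0 of the 45 genes differed between batches by limma at the adjusted threshold, and 3 had an unadjusted p under 0.05. The share of all features was not set beside these counts, so they show nothing particular to these genes. How the batches were made is not given in the sources used here.

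Variation within group and batch was slightly wider for these genes than over all features, with a median residual SD of 0.26 against 0.23. Batch took a median of 15% of the variance of a gene and group 6.01%, beside 13.7% and 6.8% over all features. Group has more terms in the fit than batch and so takes more of the variance by chance alone. The shares of batch and group are therefore not on an equal footing. Without XX male 6 batch took 17.6% and group 5.88%. Batch took over 50% in 12 of the 45 genes without that array, or 26.7%, beside 16.5% of all features, led by Kcnd2 at 96.3%, Kcna1 at 95.1% and Kcnh1 at 94.2%. Group took the most in Kcne1l at 30.6% and Kcnab2 at 23.1%. The widest residual SDs were 0.59 for Kcnj4, 0.58 for Kcna1, 0.56 for Kcnip4, 0.47 for Kcna5, 0.43 for Kcnab3 and 0.42 for Kcnj9. Without XX male 6 that of Kcna1 was 0.32 and that of Kcnip4 was 0.42. The narrowest were 0.13 for Kcnab2, 0.15 for Kcnc4 and 0.15 for Kcnk1.

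**Figure D4:**
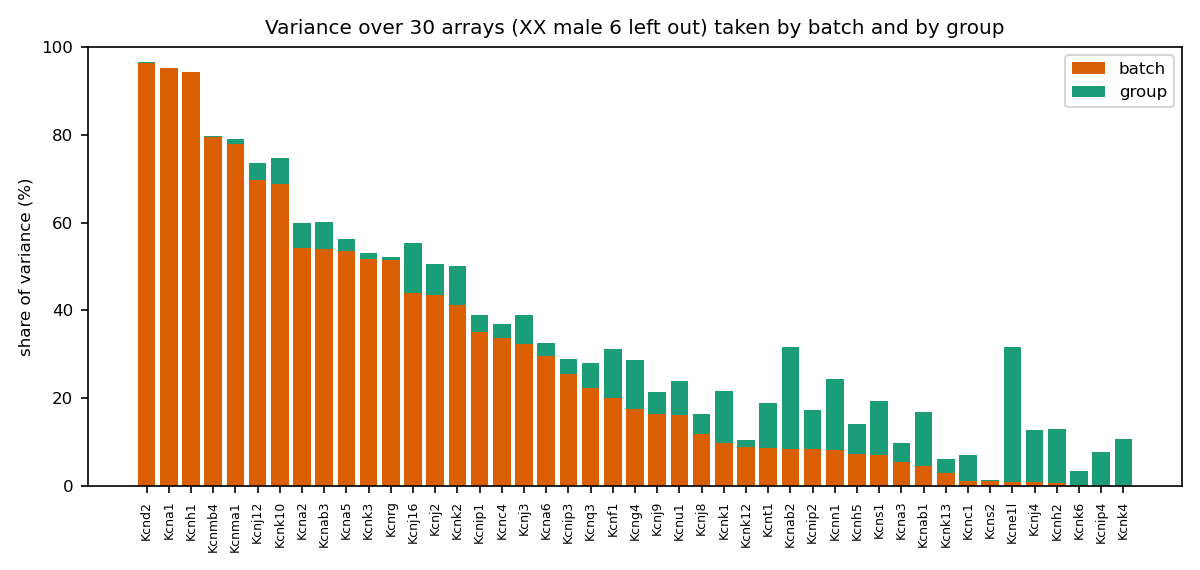
Share of each gene's variance over 30 arrays taken by batch (orange) and by group (green) in the additive fit, with XX male 6 left out and the rest of each bar residual. Batch takes over 50% in 12 genes (26.7%, beside 16.5% of all features), and group takes its largest share, 30.6%, in Kcne1l.

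The arrays differed in the mean level of marker genes of neighbouring regions, and some potassium channel genes moved with those means. Each gene was fitted on the mean of each of 13 marker lists with group and batch as terms, which gave 585 slopes for the 45 genes, adjusted together with those of all features. Of these, 5 passed beside 0.576% over all features and lists, in Kcnj12, Kcns2, Kcnip4 and Kcnj4. In bulk tissue more cells of a type and more RNA per cell cannot be told apart, and a gene and a list mean on one array share its normalization.

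Kcnj12, a strong inward rectifier that holds neurons near rest, followed the thalamic list, which rests on 7 of 10 markers, all 7 detected on every array. It stood at 9.18 on XY male 5, the batch 1 array with the highest thalamic list mean, and at 8.02 on XXY male 2 and 7.97 on XX male 5, which had the lowest in that batch. Within batch 2 it stood at 6.83 on XXY male 8, which had the lowest list mean, and at 7.69 on XY male 6, which had the highest. The slope was 0.71 with an SE of 0.07 (limma, adjusted p = 1.49e-07), and 0.68 without XX male 6. After group and batch were removed Pearson's r was 0.90 and Spearman's rho 0.88 over 31 arrays (permutation p = 1.0e-05 for both, the smallest that 100000 permutations can give, adjusted over the 585 pairs to 0.00195). Pearson's r was 0.88 without the 2 farthest arrays, 0.90 within batch 1 and 0.90 within batch 2. The list mean ran from -0.66 to 0.57 in XX females, -0.83 to 0.53 in XX males, -0.74 to 0.30 in XXY males and -0.67 to 0.85 in XY males, so that every group held arrays on both sides of 0. Kcns2, a silent subunit, had a slope of 0.49 (limma, adjusted p = 0.0012) and r of 0.76, with rho of 0.73. Kcnip4, a calcium-binding partner of Kcnd channels, had a slope of 0.82 (limma, adjusted p = 0.00277), r of 0.72 and rho of 0.80. On XX male 6 it stood at 5.99, below the 7.17 to 8.58 of the other arrays, and without that array the slope was 0.72 (limma, adjusted p = 1.27e-05). Kcnma1 passed only without XX male 6, at 0.34 (limma, adjusted p = 0.0429). Over all features 1.76% passed on this list, and 2% without XX male 6.

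Kcnj12 also had a slope of 1.11 on the cortical and hippocampal list (limma, adjusted p = 0.0455, r = 0.63, rho = 0.63), which 0.111% of all features passed (0.12% without XX male 6). That list and the thalamic list correlated at 0.58 over the same 31 arrays. The call was lost with no background correction, at an adjusted p of 0.129 by limma.

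Kcnj4, a strong inward rectifier of forebrain neurons, followed the striatal list, of which 7 of 10 markers were measured and 6 of these detected on all arrays. Its lowest, median and highest signals were 6.42, 6.86 and 7.61 in XX females, 6.79, 7.30 and 8.55 in XX males, 6.45, 6.99 and 7.52 in XXY males, and 6.65, 6.96 and 9.14 in XY males. The highest arrays were XY male 2 at 9.14, XX male 8 at 8.55 and XX male 6 at 8.41, and the same 3 arrays had the highest striatal list means, at 1.83, 0.91 and 0.88. The slope was 1.05 with an SE of 0.11 (limma, adjusted p = 8.04e-07), and 0.94 without the 2 farthest arrays, XY male 2 and XX male 8 (limma, adjusted p = 0.0451). Over all features 0.769% passed on this list, and 0.803% without XX male 6. Pearson's r was 0.87 (permutation p = 1.0e-05) and Spearman's rho 0.64 (permutation p = 0.00014, adjusted p = 0.0205), and r fell to 0.70 without those 2 arrays. It was 0.93 within batch 1 and 0.74 within batch 2. With the striatal list mean as a further term, chosen after seeing the data, the XX female minus XX male difference in Kcnj4 was -0.22 in place of -0.63. Not every difference shrank in this way. The XX female minus XXY male difference in Kcnj4 was -0.10 in place of -0.05. With the thalamic list mean and without XX male 6, the XX minus XY male difference in Kcnip4 was 0.27 in place of 0.16. What lies behind these changes was not tested.

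**Figure D5:**
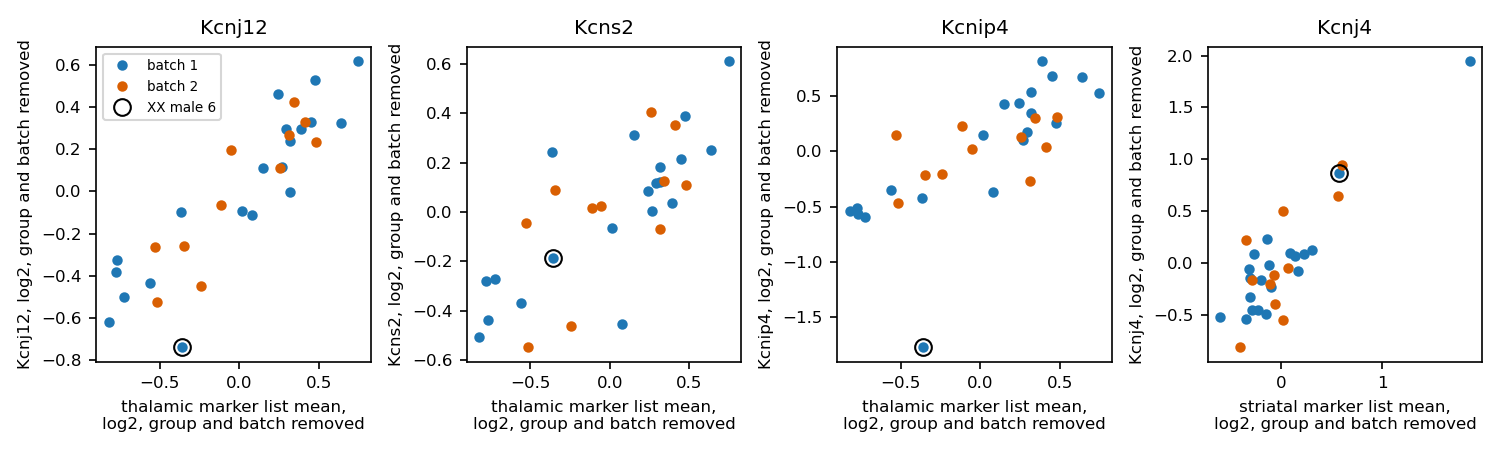
Log2 signal of Kcnj12, Kcns2, Kcnip4 and Kcnj4 against the mean of the thalamic (first 3 panels) or striatal (last panel) markers, each with group and batch means removed, 1 point per array. Points rise from left to right in both batches, with r of 0.90 for Kcnj12, and XX male 6 (ringed) lies below the other points for Kcnip4.

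The bases just before the RefSeq starts of these genes are shown because their levels moved with a regional marker list. Of the 45 genes, 37 had a start in the RefSeq table (GRCm38.p6), Kcns2 not among them, and Kcnip4 had 2 starts. Each line gives positions -150 to -1, 5′ to 3′ on the gene's strand, in lower case, with capitals for a match on either strand. The motifs searched were the GC box GGGCGG, the cyclic AMP element TGACGTCA, the promoter box TATAAA and the E-box CACGTG.
Kcnj12, chr11:61065654-61065803, plus strand: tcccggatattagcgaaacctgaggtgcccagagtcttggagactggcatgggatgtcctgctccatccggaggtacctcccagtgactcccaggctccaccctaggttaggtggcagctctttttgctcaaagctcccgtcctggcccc
Kcnip4 start 1, chr5:49285660-49285809, minus strand: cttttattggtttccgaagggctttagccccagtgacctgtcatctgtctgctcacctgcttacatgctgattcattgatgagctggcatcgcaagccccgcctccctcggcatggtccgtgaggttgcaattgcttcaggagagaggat
Kcnip4 start 2, chr5:48599683-48599832, minus strand: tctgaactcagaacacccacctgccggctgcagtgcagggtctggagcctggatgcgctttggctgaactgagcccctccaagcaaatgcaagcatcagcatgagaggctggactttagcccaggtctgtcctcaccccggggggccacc
Kcnj4, chr15:79505242-79505391, minus strand: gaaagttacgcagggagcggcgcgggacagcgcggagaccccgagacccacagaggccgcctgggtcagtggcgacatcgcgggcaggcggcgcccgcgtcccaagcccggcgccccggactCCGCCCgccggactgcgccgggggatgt
Kcnj4 held 1 match, a GC box read on the opposite strand, and the others held none of these letters. In windows of the same length a GC box was present before 28.6% of all 32851 starts and 37% of 54 starts of the potassium channel genes. The motif TATAAA was present before 7.57% and 1.85%, an E-box before 4.3% and 3.7%, and the cyclic AMP element before 1.36% of all starts and 0 of the 54. The GC content was 59.3% before Kcnj12 and 76.7% before Kcnj4.

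Genes that act with potassium channels were followed as a list of 32 partners and potassium transporters, of which 21 were measured. By limma none passed the adjusted threshold in a comparison between groups, and the smallest unadjusted p-values against XY males were those of Dlg1, a scaffold of Shaker-type channels, at 0.47 in XXY males (limma, adjusted p = 1.00) and 0.47 in XX males (limma, adjusted p = 0.874). Between batches 13 differed without XX male 6, 8 higher and 5 lower, beside the 48.3% of all features given above. Adam22, an axonal partner of Kcna1 complexes, fell by 0.82, and Ank3, an anchor of the axon initial segment, fell by 0.44. Cntnap2, which clusters Kcna channels beside the node, was higher by 0.45, as were the calmodulin gene Calm2 by 0.47 and the potassium-chloride transporter Slc12a5 by 0.49.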

How the data were processed

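For 25697 probes on 31 arrays the deposited scanner output gives an unnormalized bead intensity, and the deposited detection p-value stands beside it, both per the file headers. In the table processed by the authors 12980 probes have log2 values, whose scale was read here by comparison with the scanner values (correlation 0.997), and which had a median of 8.65 on every array. The only tool given in the submitters' processing notes is limma.

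Intensities were background-corrected from the detection p-values, given an offset of 16, quantile-normalized and set to log2 (neqc, limma 3.58.1, R 4.3.3). A probe was kept if detected (p-value under 0.05) in 7 arrays or more, with 1 per gene, leaving 11711 features of which 8972 were named. Probe names came from the platform annotation, and 6 symbols were updated through RefSeq (GRCm38.p6). Groups came from the sample labels. Limma was fitted with group and batch, and p-values were adjusted by Benjamini-Hochberg over all features at 0.05. Slopes on marker lists were adjusted over all features and lists together.

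The members and the lists were chosen with earlier results of these data known. A rule named 32 genes for closer reporting. They were those of smallest p per comparison (3 where fewer pass), the 6 largest batch rises and falls, and the 6 widest and 3 narrowest residual SDs. Added to these were those with a passing slope, those whose probes differed in sign and the 11 measured of 18 genes named in the rule. Single values are also given for genes outside the rule, such as the batch differences of Kcna2, Kcnk3 and Kcnrg. The steps were tested on simulated data. Alternatives tried were the submitters' values, other background and normalization steps, probe filters, probe choice, batch handling and leaving out each array.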

Additional observations from a re-analysis of the deposited data

Results flagged for a closer look

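Among 128 sets of a named potassium channel gene and a group, 7 held an array far from the others of its group. The rule flags about 1 in 20 sets by chance where the sets are not picked by their values. Many of these genes were picked by their spread or batch difference in the same data. Each group also holds arrays of both batches, so that batch differences enter the ranges. The 7 can therefore not be set against that rate. On XX male 6 the log2 signal was 6.60 for Kcnip2 (others 7.41 to 7.81), 9.20 for Kcnj16 (8.34 to 8.63) and 7.91 for Kcnn1 (7.19 to 7.49). XY male 2 stood at 9.14 for Kcnj4, with the other XY males between 6.65 and 7.49. XX female 1 stood at 7.62 for Kcnj9 (6.39 to 6.95). XXY male 8 stood at 7.04 for Kcna6 (7.47 to 7.86), and XX male 8 at 12.07 for Kcnc4 (12.40 to 12.62).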

How the results depend on the processing

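The count of 0 potassium channel genes passing in the 6 group comparisons and the F test held under every alternative run, including the fit with the replicate number as a block, and when any single array was left out. The 21 genes that differed between batches became 0 in the submitters' processed values, in which the batches had already been brought together. The count ranged from 20 to 25 when an array was left out, the highest without XX male 6. The 5 slopes that passed became 3 with no batch term and 9 with the replicate block. Shares of all features were not set beside these 2 counts, so the changes cannot be read as particular to these genes. The labels do not say what a shared replicate number marks. The numbers used were those of the sample titles. For some XX male arrays the descriptions give another number, which is 5 for XX male 6. By its title that array shares its block with batch 2 arrays of the other groups. The block by the numbers of the descriptions was not run. Deviations of same-numbered arrays correlated at -0.24 to 0.31 (median 0.04, 14 of 45 pairs over 0.1), those of other-numbered arrays of the same batch at a median of -0.08 (30 of 153 pairs over 0.1), and 7 arrays correlated best with their own number. The arrays numbered 2 had the 4 lowest counts of detected probes, 12939 to 13235, and what they share was not tested beyond this block. By limma in the submitters' values, Kcnk2 was at -0.0297 between batches in place of 0.32, and with its other probe it was at -0.000131. The other 11 named batch differences kept their sign there but did not pass, at -0.31 for Kcna1, -0.32 for Kcnh1 and -0.26 for Kcnd2. Kcnk10 in XXY against XX males turned to -0.0468 within batch 2, against 0.35. The submitters' values had been shifted by batch, as given for Kcna1, and for the other changes the cause was not tested. Probe intensity limits the 12 genes not detected on every array, and the number of arrays limits the precision of all.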

Other observations

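Of the 45 genes, XY male 5 held the highest signal in 8 and the lowest in 3, so that 24.4% of these genes had an extreme on that array, against 9.13% of all features. XX male 6 held an extreme in 20% of the 45 genes, against 23.5% of all features.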
